A study of Mus musculus with 10 samples.

Results

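A set of 10 genes of the interleukin-1 system was followed in cultured microglia of wild-type mice, the macrophages that live in brain tissue: the ligand genes Il1a, Il1b and Il18, the receptor antagonist gene Il1rn, the receptor genes Il1r1 and Il1rap, and the inflammasome genes Casp1, Nlrp3, Pycard and Gsdmd. They were taken by name from the 55471 genes counted in each library, and all 10 were found and passed the filter on low counts. The cells of 5 libraries had received gapmers against the long noncoding RNA 3222401L13Rik, and those of 5 libraries had received control gapmers. Gapmers are short DNA-like oligonucleotides, complementary to an RNA, which lead the enzyme RNase H to degrade it. All cells were wild type and were grown in serum-containing medium. The labels do not state the gapmer dose, the time of treatment or how many animals or cultures the libraries came from, and p-values therefore measure the spread between these libraries, which may be technical. Values are counts per 1000000 reads (CPM), scaled by TMM, a method that sets the libraries level on the bulk of genes.

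Interleukin-1 alpha and beta signal through the receptor IL1R1, which then recruits the accessory chain IL1RAP. The receptor antagonist, the product of Il1rn, occupies IL1R1 without starting a signal. Interleukin-1 beta and interleukin-18 are made as inactive precursors. The sensor NLRP3 and the adaptor ASC (gene Pycard) assemble into an inflammasome that activates caspase-1, which cuts both precursors and gasdermin D, whose fragment forms pores in the cell membrane. Microglia are a main source of interleukin-1 beta in the brain, and resting cells keep its mRNA low until an inflammatory stimulus. RNA levels do not show the cutting steps.

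Gene positions are those of GENCODE M21 on GRCm38. The ligand genes were Il1a (ENSMUSG00000027399, chr2:129299610-129309972, minus strand), Il1b (ENSMUSG00000027398, chr2:129364570-129371139, minus strand) and Il18 (ENSMUSG00000039217, chr9:50554827-50581840, plus strand). The antagonist gene was Il1rn (ENSMUSG00000026981, chr2:24336853-24351494, plus strand). The receptor genes were Il1r1 (ENSMUSG00000026072, chr1:40225080-40317257, plus strand) and Il1rap (ENSMUSG00000022514, chr16:26581704-26730117, plus strand). The inflammasome genes were Casp1 (ENSMUSG00000025888, chr9:5298517-5307265, plus strand), Nlrp3 (ENSMUSG00000032691, chr11:59541568-59566956, plus strand), Pycard (ENSMUSG00000030793, chr7:127989708-127993867, minus strand) and Gsdmd (ENSMUSG00000022575, chr15:75862327-75867408, plus strand).

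The promoters of 4 members are shown: the ligand genes Il1a and Il1b, which neighbour each other on chromosome 2, and Il1rn and Il1r1, the members whose levels did not overlap between the groups. Each is the 250 bases before the RefSeq start, 5′ to 3′ on the strand of the gene (GRCm38.p6, RefSeq; Il1rn and Il1r1 have further starts, not shown). Windows for 9 of the 10 members were matched by symbol. Capitals mark matches on either strand to GAGGAA, a core of sites bound by PU.1, to TATAAA, the TATA box, or to the NF-kB consensus, and no such matches overlapped in these 4 windows.
Il1a (chr2:129309973-129310222, minus strand): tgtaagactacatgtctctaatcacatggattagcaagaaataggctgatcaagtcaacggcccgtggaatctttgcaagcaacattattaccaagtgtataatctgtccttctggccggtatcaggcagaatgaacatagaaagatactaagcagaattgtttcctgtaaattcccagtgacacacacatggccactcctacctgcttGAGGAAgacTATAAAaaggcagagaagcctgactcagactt
Il1b (chr2:129371140-129371389, minus strand): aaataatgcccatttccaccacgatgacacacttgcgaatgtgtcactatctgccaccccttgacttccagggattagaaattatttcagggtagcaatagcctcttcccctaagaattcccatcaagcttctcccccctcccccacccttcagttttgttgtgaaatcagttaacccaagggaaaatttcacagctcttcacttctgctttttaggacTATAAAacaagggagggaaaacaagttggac
Il1rn (chr2:24336610-24336859, plus strand): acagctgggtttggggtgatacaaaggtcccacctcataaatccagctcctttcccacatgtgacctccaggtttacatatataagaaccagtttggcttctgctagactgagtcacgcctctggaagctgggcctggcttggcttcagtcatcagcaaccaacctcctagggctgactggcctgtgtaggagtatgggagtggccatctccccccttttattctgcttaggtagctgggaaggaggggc
Il1r1 (chr1:40224830-40225079, plus strand): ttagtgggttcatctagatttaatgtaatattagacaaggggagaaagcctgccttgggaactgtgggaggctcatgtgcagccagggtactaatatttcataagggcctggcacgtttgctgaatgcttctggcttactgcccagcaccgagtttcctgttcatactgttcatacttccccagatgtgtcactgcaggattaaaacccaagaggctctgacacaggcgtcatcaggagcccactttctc
Il1a held GAGGAA starting 41 bases and TATAAA starting 32 bases before its start, and Il1b held TATAAA 31 bases before its start. None of these letters were found in the Il1rn and Il1r1 windows shown. In windows not shown, GAGGAA was found for Casp1, Nlrp3 and Pycard, TATAAA for Il18, and the NF-kB consensus in a further window each of Il1r1 and Nlrp3. Of 32851 RefSeq windows of this length, 23.3% held GAGGAA, 12.4% held TATAAA and 7.25% held the NF-kB consensus. A match describes the sequence and is not evidence of binding.

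Libraries held 5593627 to 6636082 reads under the knockdown label and 4321316 to 5639040 reads in the controls. The targeted RNA itself did not separate the labels, at 5.11 ± 1.08 CPM in the libraries labelled knockdown and 5.76 ± 0.427 CPM in the controls (SD, n = 5 each, log2 fold change -0.17, SE 0.23, adjusted p = 0.541). Predicted background, defined below, came to 33.8% of its reads in the libraries labelled knockdown and 61.4% in the controls. Directions below are therefore those of the libraries labelled knockdown. Reads on 1135 olfactory receptor genes, which microglia do not use, lay at 0.257 ± 0.0674 CPM per kilobase (unscaled) in the libraries labelled knockdown, against 0.599 ± 0.147 in the controls (SD, n = 5 each). An exact permutation test over all splits, two-sided, gave p = 0.00794, which is the smallest value possible with 5 libraries a group. The share of a gene's reads that this density predicts is called its background share. Of 4743 tested genes with a share under 5%, 75.3% rose and 0.675% fell, and the median of their log2 fold changes was 0.24. Of 3886 genes whose share lay between 20 and 40%, 0.257% rose and 49.2% fell, around a median of -0.58. Microglia markers (12 of 12 with reads) summed to 4438 to 5122 CPM in the libraries labelled knockdown and 3665 to 4436 CPM in the controls. In the libraries labelled knockdown, markers of astrocytes summed to 161 to 197 CPM, those of the oligodendrocyte lineage to 100.4 to 111 CPM and those of neurons to 24.5 to 38.2 CPM. In the controls the same lists summed to 170.04 to 189, 104 to 110.2 and 47.3 to 71.1 CPM. Background density predicted 0.308% of the reads of the microglia list, 11.9% for astrocytes, 18.1% for the oligodendrocyte lineage and 51.6% for neurons. No list had a marker at 0 over all libraries. Background reads also fall on genes not in use, so this does not show which cells were present.

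Of the 10 members, 3 rose, 1 fell and 6 were not called in the libraries labelled knockdown. A call means a p under 0.05 in edgeR's quasi-likelihood test after Benjamini-Hochberg adjustment over all 19263 genes tested, and p-values below are adjusted in this way. Il1rn, Casp1 and Pycard rose, and Il1r1 fell. Among all tested genes 22.9% rose and 31.3% fell, so 3 rises and 1 fall among 10 genes stand close to, or under, the shares of the transcriptome. Their median log2 fold change was 0.15, against -0.10 for all tested genes. Of the members 5 had a background share under 5%, and the median of all genes with such a share was 0.24. Groups did not overlap for Il1rn (above) and Il1r1 (below), 1 member each way, where 12.6% of all tested genes lay wholly above and 14.2% wholly below.

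These counts moved with the scale used. In lane 7 alone (3 libraries against 3) the same 4 members were called, where 20.7% of all genes rose and 28.9% fell. In lane 8 alone (2 against 2) no member was called by edgeR, 1 reached an unadjusted p under 0.05, and 0.328% of all genes rose and 0.749% fell. With upper-quartile scaling Il1rn was higher and Il1r1, Il1rap and Nlrp3 were lower, where 8.75% of all genes rose and 37.4% fell. Library totals alone gave the same 4 calls, where 3.94% rose and 40.9% fell. Scaling on genes under a 5% background share also gave them, where 1.62% rose and 44.6% fell. With background reads subtracted as well, Il1rn was higher and Il1r1 and Nlrp3 were lower, where 0.952% of 14713 genes rose and 12.8% fell. Under a stricter filter of 5 CPM in 5 libraries Il1rn was higher and Il1r1 and Il1rap were lower, where 17.1% of 12005 genes rose and 18.7% fell. DESeq2 called Gsdmd higher beside the 4 members called by edgeR, where 25.9% rose and 26.2% fell, and so did edgeR with no filter on low counts, where 12% rose and 15.0% fell. The 4 calls were kept with lane as a covariate, where 22.6% rose and 30.7% fell, and with replicate number as a block, where 22.9% rose and 30.9% fell. With background density as a covariate no member was called by edgeR, 2 (Il1rn and Il1b, both higher) reached an unadjusted p under 0.05, and 0.0104% of all genes rose and 0.145% fell.

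**Figure D1:**
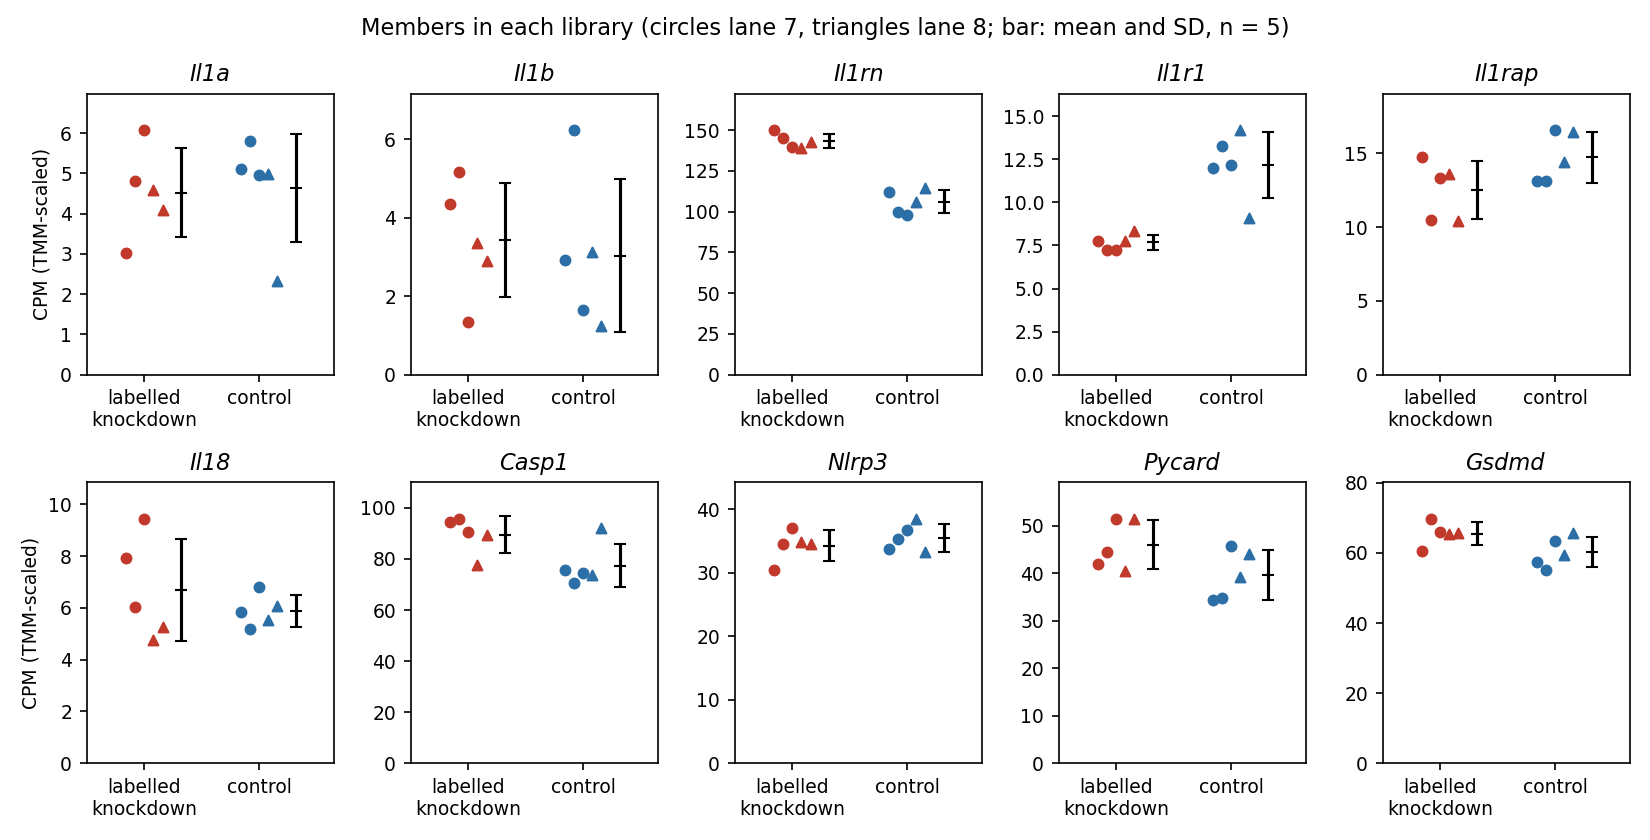
TMM-scaled CPM (y axes, from 0) of the 10 members in each library, with libraries labelled knockdown at the left (red) and controls at the right (blue), circles for sequencing lane 7, triangles for lane 8, and bars for mean and SD (n = 5). Il1rn lies at 139.1 to 149.9 CPM in the libraries labelled knockdown, above the controls at 97.9 to 114.5 CPM, and Il1r1 at 7.24 to 8.35 CPM lies below the controls at 9.11 to 14.2 CPM.

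Set per kilobase of annotated exon, the members covered a wide range of levels, with the inflammasome genes and the antagonist high and the interleukin-1 ligands low. Lengths were those of all annotated exons merged, such as 3800 bases for Pycard and 1497 bases for Casp1. A transcript in use can be shorter, so these levels and their order depend on the annotation. Casp1 was highest, at 59.8 ± 4.85 CPM per kilobase in the libraries labelled knockdown and 51.6 ± 5.61 in the controls (SD, n = 5 each). Gsdmd averaged 27.5 ± 1.39 CPM per kilobase in the libraries labelled knockdown and 25.3 ± 1.81 in the controls. Il1rn averaged 25.9 ± 0.810 CPM per kilobase in the libraries labelled knockdown and 19.2 ± 1.30 in the controls. The Gsdmd and Il1rn libraries thus overlapped under the knockdown label but not in the controls. Pycard stood at 12.1 ± 1.36 CPM per kilobase in the libraries labelled knockdown and 10.4 ± 1.37 in the controls, and Nlrp3 at 8.45 ± 0.595 in the libraries labelled knockdown and 8.75 ± 0.542 in the controls. In the controls Pycard and Nlrp3, neighbours in this order, overlapped between libraries, and Nlrp3 lay above Il18, while under the knockdown label Pycard lay above Nlrp3 and the libraries of Nlrp3 and Il18 overlapped. Il18 averaged 6.49 ± 1.90 CPM per kilobase in the libraries labelled knockdown and 5.71 ± 0.593 in the controls.

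The lowest 4 were Il1a, Il1r1, Il1b and Il1rap, whose control ranges overlapped from each to the next. Il1a averaged 2.29 ± 0.563 CPM per kilobase in the libraries labelled knockdown and 2.35 ± 0.679 in the controls. Il1r1 averaged 1.21 ± 0.0718 CPM per kilobase in the libraries labelled knockdown and 1.91 ± 0.302 in the controls. Il1b averaged 1.80 ± 0.764 CPM per kilobase in the libraries labelled knockdown and 1.59 ± 1.03 in the controls. Il1rap had the lowest level, 1.10 ± 0.173 CPM per kilobase in the libraries labelled knockdown and 1.30 ± 0.150 in the controls (SD, n = 5 each). On the same scale the background density was 0.277 ± 0.0640 in the libraries labelled knockdown and 0.566 ± 0.115 in the controls, so these genes lay closest to it. By group means the antagonist gene exceeded Il1b 14.4 times per kilobase under the knockdown label and 12.03 times in the controls. With predicted background reads taken off both genes, the ratios were 16.9 under the knockdown label and 18.1 in the controls, so the order of the groups turned. Over Il1a it did not turn: the ratios were 11.3 under the knockdown label and 8.16 in the controls, and 12.7 and 10.4 after subtraction. These are ratios of group means, given without a spread.

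**Figure D2:**
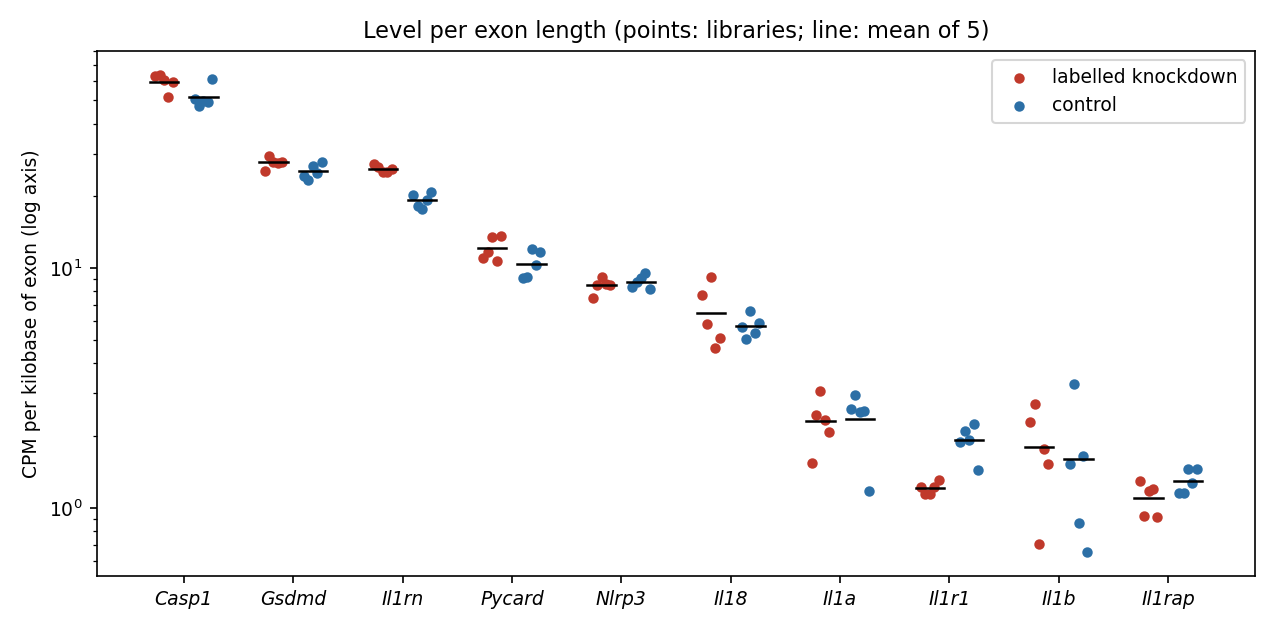
TMM-scaled CPM per kilobase of exon (y axis, log scale) of each member, ordered by control mean, with libraries labelled knockdown in red at the left of each pair and controls in blue at the right, and lines for the means of 5 libraries. Casp1 leads at 59.8 and 51.6 CPM per kilobase, and Il1a, Il1r1, Il1b and Il1rap lie at or under 2.35.

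Il1rn, the gene of the interleukin-1 receptor antagonist, was the member with the clearest rise. Replicates 1 to 5 had 149.9, 145.4, 139.6, 139.1 and 142.7 CPM in the libraries labelled knockdown, against 111.8, 99.9, 97.9, 106.2 and 114.5 CPM in the controls. Every library labelled knockdown thus lay above every control. The means were 143 ± 4.48 CPM in the libraries labelled knockdown and 106 ± 7.21 CPM in the controls (SD, n = 5 each). The fitted log2 fold change was 0.43 (SE 0.06, adjusted p = 2.5e-07), a 1.35-fold difference with bounds of 1.24-fold and 1.47-fold at 95%. Its background share was 1.83%, and 1.29% of the 4743 genes with a share under 5% had a higher log2 fold change. Scaled on those genes alone the log2 fold change was 0.19 (SE 0.05, adjusted p = 0.00112), and with background reads also subtracted it was 0.19 (SE 0.05, adjusted p = 0.00711). It was 0.51 in lane 7 (adjusted p = 1.9e-06, 3 libraries against 3) and 0.37 in lane 8 (adjusted p = 0.0636, 2 against 2). With the background density as a covariate it was 0.34 (SE 0.10, adjusted p = 0.253), a fit in which 0.0104% of all genes rose.

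Ratios of reads within a library do not depend on how libraries are scaled, and were computed after the values had been seen, so they carry no test. Il1rn reads over Casp1 reads were 1.59, 1.52, 1.54, 1.79 and 1.60 in the libraries labelled knockdown, replicates 1 to 5, against 1.48, 1.41, 1.32, 1.44 and 1.24 in the controls. Over Gsdmd the ratios ran from 2.08 to 2.48 in the libraries labelled knockdown and from 1.54 to 1.95 in the controls. Over Nlrp3 they ran from 3.76 to 4.93 in the libraries labelled knockdown and from 2.66 to 3.45 in the controls. The groups lay apart in these 3 ratios, while over Pycard they overlapped, at 2.72 to 3.57 in the libraries labelled knockdown and 2.15 to 3.25 in the controls. Il1rn was therefore higher relative to Casp1, Gsdmd and Nlrp3 in each library labelled knockdown than in any control.

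**Figure D3:**
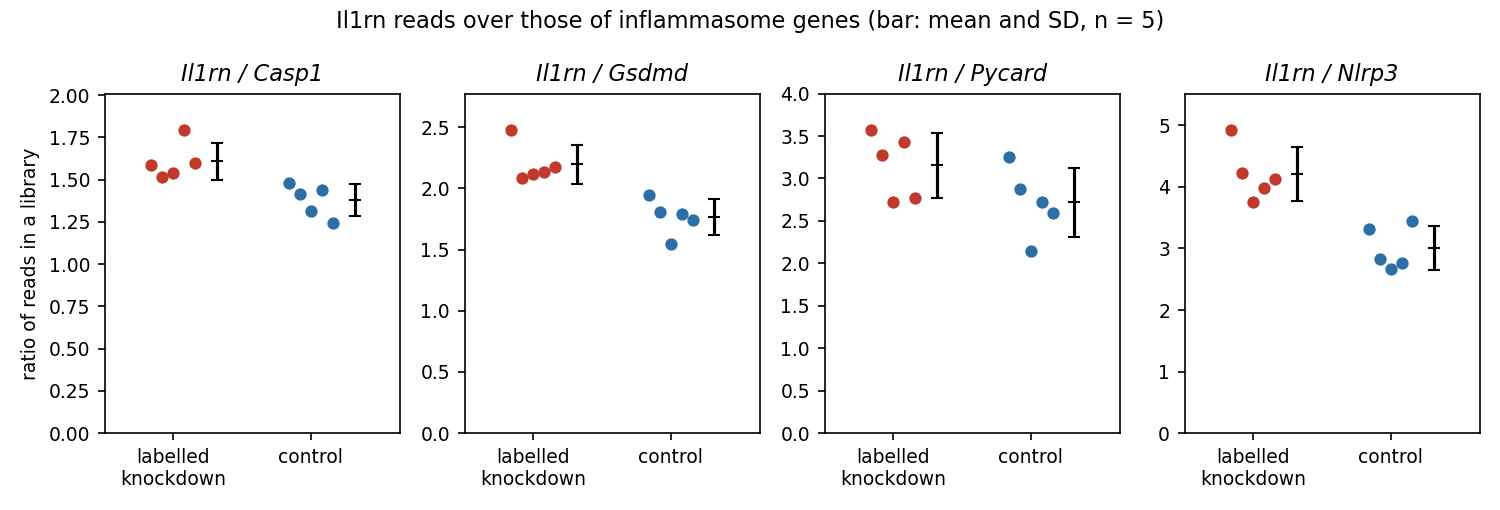
Il1rn reads divided by the reads of Casp1, Gsdmd, Pycard and Nlrp3 in the same library (y axes, ratio from 0), with libraries labelled knockdown in red at the left and controls in blue at the right, and bars for mean and SD (n = 5). The groups lie apart over Casp1 (1.52 to 1.79 against 1.24 to 1.48), Gsdmd and Nlrp3, and overlap over Pycard.

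The ligand genes showed no called difference, at counts too low for a narrow interval. Il1b had 23, 30, 8, 19 and 17 reads in the libraries labelled knockdown, replicates 1 to 5, and 16, 30, 9, 17 and 7 reads in the controls. Both groups spanned nearly the same range, from 1.35 to 5.17 CPM under the knockdown label and from 1.25 to 6.23 CPM in the controls. The log2 fold change was 0.19 (SE 0.33, 95% interval -0.48 to 0.86, adjusted p = 0.647), so changes between 0.717-fold and 1.81-fold lay inside the interval. Without control replicate 2 the log2 fold change was 0.62, with no call. With background density as a covariate it was 1.97 (SE 0.57, 95% interval 0.84 to 3.10, adjusted p = 0.206), and in lane 8 alone 0.54 (SE 0.52, adjusted p = 0.525), against 0.05 in lane 7. The background share of Il1b was 15.4% in the libraries labelled knockdown and 36.2% in the controls.

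Il1a, the ligand that is active without caspase-1, had 16, 28, 36, 26 and 24 reads in the libraries labelled knockdown and 28, 28, 27, 27 and 13 reads in the controls. Control replicate 5 stood away from its group, at 2.32 CPM against 4.97 to 5.82 CPM in the other 4. The log2 fold change of Il1a was -0.02 (SE 0.26, 95% interval -0.54 to 0.49, adjusted p = 0.941). Il18, whose product drives interferon gamma release from lymphocytes, had 7.94, 6.03, 9.45, 4.78 and 5.28 CPM in the libraries labelled knockdown and 5.83, 5.19, 6.81, 5.53 and 6.07 CPM in the controls. The libraries labelled knockdown were the more scattered, with the highest and the lowest value of all 10. The log2 fold change of Il18 was 0.18 (SE 0.22, 95% interval -0.25 to 0.62, adjusted p = 0.487), at 0.41 in lane 7 and -0.18 in lane 8, neither called. Annotated genes on the opposite strand share exon bases with Il1a (222 bases, Gm14023) and Il1b (25 bases, Il1bos). They held 69 and 73 reads over all libraries, against 253 of Il1a and 176 of Il1b, and since the strand setting of the counting is not stated, reads of such pairs cannot be told apart.

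The signalling receptor gene Il1r1 fell, while that of its partner chain did not pass the test. Il1r1 had 7.75, 7.24, 7.26, 7.78 and 8.35 CPM in the libraries labelled knockdown, replicates 1 to 5, against 12.02, 13.3, 12.1, 14.2 and 9.11 CPM in the controls. No library labelled knockdown reached the lowest control, which was replicate 5. The means were 7.68 ± 0.457 CPM in the libraries labelled knockdown and 12.2 ± 1.92 CPM in the controls (SD, n = 5 each). The fitted log2 fold change was -0.66 (SE 0.17, adjusted p = 7.8e-04), with bounds of -0.99 and -0.33 at 95%. The background share of Il1r1 was 22.8% in the libraries labelled knockdown and 29.5% in the controls. Of the 3886 genes between 20 and 40%, 44.6% showed a lower log2 fold change than Il1r1, so its fall was near their median. Control replicate 5, the lowest control for Il1r1, also had the lowest background density of the controls (0.425 CPM per kilobase, unscaled, against 0.522 to 0.816 in the others). Within libraries, Il1r1 reads over Gsdmd reads ran from 0.104 to 0.128 in the libraries labelled knockdown and from 0.139 to 0.241 in the controls. The groups also lay apart over Pycard and Nlrp3 but overlapped over Casp1. Background reads were not taken off in these ratios. With them taken off, knockdown-labelled replicate 5 held 40.1 reads of Il1r1 and 381.7 of Gsdmd. Control replicate 5 held 35.8 and 362.3, so the groups no longer lay apart over Gsdmd.

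With the predicted background reads taken off, Il1r1 stood at 5.51 to 6.84 CPM in the libraries labelled knockdown and at 6.39 to 10.3 CPM in the controls, which overlapped. In the fit with background subtracted and scaling on genes under a 5% share, the log2 fold change was -0.81 (SE 0.20, adjusted p = 0.00639), where 12.8% of 14713 genes fell. It was -0.73 in lane 7 (adjusted p = 0.00495) and -0.51 in lane 8 (adjusted p = 0.245), and with background density as a covariate it was -0.25 (SE 0.33, adjusted p = 0.973). Il1r1 is known from endothelial cells and fibroblasts, and markers of these cells also held reads. Part of these reads is predicted background, at 11.6% for the endothelial list. Whether such cells were present was not tested, and these reads alone do not show it. The 7 endothelial markers summed to 149 to 163 CPM in the libraries labelled knockdown and 154 to 174 CPM in the controls, and the 8 fibroblast and mural markers to 17.9 to 31.6 CPM in the libraries labelled knockdown and 36.8 to 52.2 CPM in the controls. Of 5 tested endothelial markers, Flt1 rose, at a background share of 4.58%. Flt1 gave most of the sum (128 CPM on average in the libraries labelled knockdown and 116 CPM in the controls). Pecam1 (-0.82), Cdh5 (-0.62), Kdr (-0.47) and Tek (-0.90) fell, at background shares of 24.04 to 41.4%. For the endothelial markers Cldn5 (125%) and Emcn (132%), not tested, background density predicted more reads than were counted. All 6 tested fibroblast and mural markers fell, and background density predicted 58.2% of the reads of that list. The part of other cells in the Il1r1 result was not tested, and in bulk libraries fewer cells of a type and less RNA per cell cannot be told apart.

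Il1rap, the accessory chain shared by the receptors for interleukin-1, interleukin-33 and interleukin-36, had 14.7, 10.5, 13.3, 13.6 and 10.4 CPM in the libraries labelled knockdown and 13.1, 13.1, 16.6, 14.4 and 16.4 CPM in the controls. The groups overlapped, with the lowest 2 libraries under the knockdown label. The log2 fold change was -0.24 (SE 0.14, 95% interval -0.51 to 0.03, adjusted p = 0.131). It carried the highest background share of the members, 34.6%, and shares 552 exon bases with the opposite-strand gene Gm20319, which held 6 reads over all libraries. Scaled on genes under a 5% share it was called lower at -0.48 (adjusted p = 0.00616), and with background subtracted as well it was at -0.10 (SE 0.19, adjusted p = 0.787).

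The inflammasome genes differed little between the groups. Casp1, the protease of the complex, had 94.5, 95.8, 90.6, 77.5 and 89.3 CPM in the libraries labelled knockdown, replicates 1 to 5, against 75.6, 70.7, 74.3, 73.9 and 92.0 CPM in the controls. Control replicate 5 lay among the libraries labelled knockdown, and the other 4 controls lay below all of those. The means were 89.5 ± 7.25 CPM in the libraries labelled knockdown and 77.3 ± 8.41 CPM in the controls (SD, n = 5 each). The fitted log2 fold change was 0.21 (SE 0.07, adjusted p = 0.00818), a 1.16-fold difference. Pycard, the gene of the adaptor ASC, had 42.0, 44.5, 51.3, 40.5 and 51.4 CPM in the libraries labelled knockdown, against 34.4, 34.7, 45.6, 39.1 and 44.1 CPM in the controls. It averaged 45.9 ± 5.16 CPM in the libraries labelled knockdown and 39.6 ± 5.19 CPM in the controls, with a log2 fold change of 0.21 (SE 0.08, adjusted p = 0.0272). The groups overlapped, and its call was lost without control replicate 1 (0.18), control replicate 2 (0.18), knockdown-labelled replicate 3 (0.19) or knockdown-labelled replicate 5 (0.20).

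Both rises lay close to that of other genes with little background. Of the 4743 genes with a share under 5%, 63.8% had a higher log2 fold change than Casp1 and 62.6% a higher one than Pycard. Scaled on those genes alone, Casp1 was at -0.03 (SE 0.06, adjusted p = 0.638) and Pycard at -0.03 (SE 0.08, adjusted p = 0.767). Casp1 was at 0.37 in lane 7 (adjusted p = 7.4e-04) and at 0.03 in lane 8 (adjusted p = 0.898). Pycard was at 0.28 in lane 7 (adjusted p = 0.0258) and at 0.17 in lane 8 (adjusted p = 0.429). A transcript annotated as yet to be verified (Gm45205) shares 485 bases with Pycard on the opposite strand and held 83 reads over all libraries.

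Nlrp3, the sensor, was not called, with 30.4, 34.5, 37.1, 34.9 and 34.6 CPM in the libraries labelled knockdown and 33.7, 35.3, 36.8, 38.5 and 33.2 CPM in the controls. The ranges overlapped, with the lowest library under the knockdown label and the highest among the controls. Its log2 fold change was -0.05 (SE 0.08, 95% interval -0.22 to 0.12, adjusted p = 0.643). That placed it low among genes with little background, since 97.3% of those with a share under 5% had a higher value. Scaled on them it was called lower at -0.30 (SE 0.08, adjusted p = 0.00355), and with background also subtracted at -0.28 (SE 0.08, adjusted p = 0.0246), where 44.6% and 12.8% of all genes fell. Gsdmd, which encodes the pore-forming gasdermin D, averaged 65.4 ± 3.30 CPM in the libraries labelled knockdown and 60.2 ± 4.31 CPM in the controls (SD, n = 5 each). Its libraries ran from 60.5 to 69.8 CPM under the knockdown label and from 55.3 to 65.7 CPM in the controls, and its log2 fold change was 0.12 (SE 0.07, 95% interval -0.02 to 0.26, adjusted p = 0.143). Of the genes with a share under 5%, 87.5% had a higher one.

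**Figure D4:**
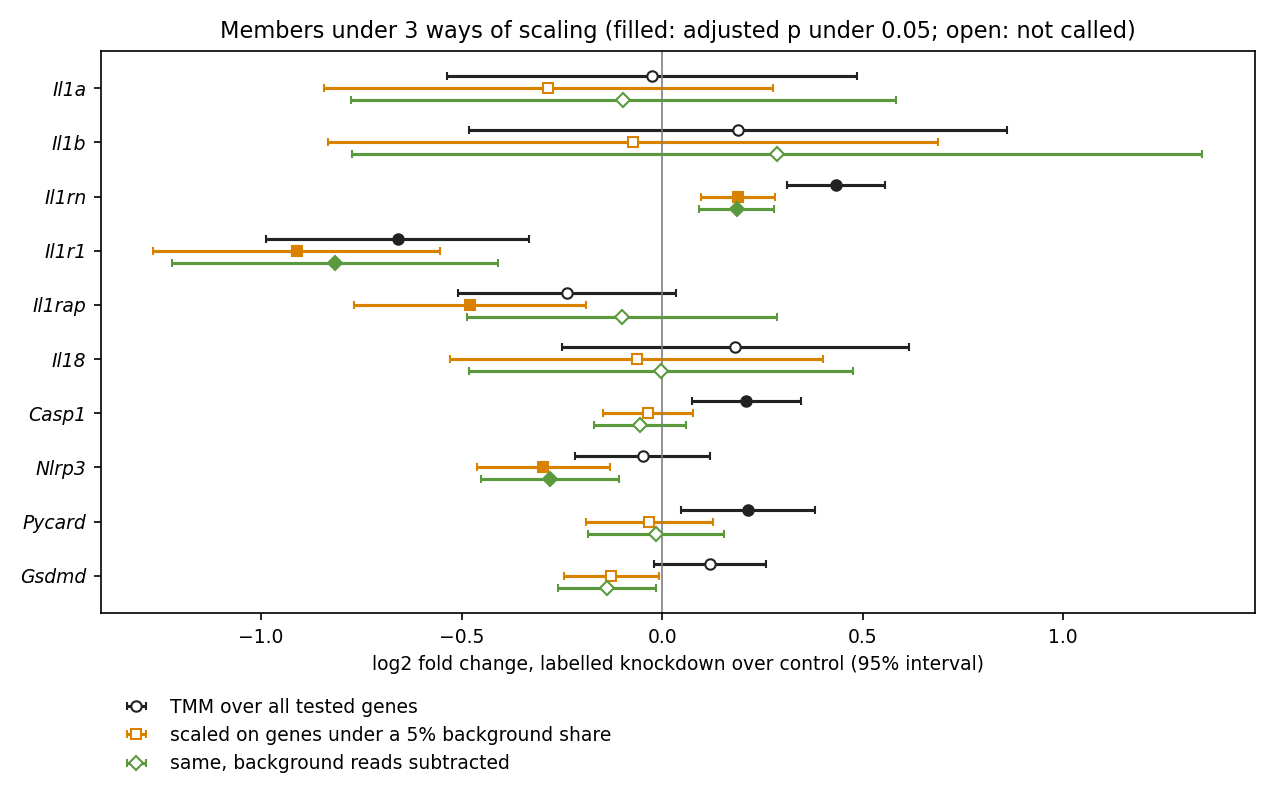
Log2 fold change of each member, libraries labelled knockdown over controls (x axis, bars for 95% intervals), with TMM over all tested genes (black), with scaling on genes under a 5% background share (orange) and with background reads also subtracted (green), where filled symbols passed an adjusted p of 0.05. Il1rn (0.43, 0.19 and 0.19) stays above 0 and Il1r1 (-0.66, -0.91 and -0.81) below 0 in all 3, while Casp1 and Pycard are at 0.21 in the first and between -0.06 and -0.015 in the others.

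The other genes of the pathway were split by their background share. Of 67 further genes, all found, 59 were tested, and of these 26 rose, 9 fell and 24 were not called, where 22.9% of all genes rose and 31.3% fell. The median of their log2 fold changes was 0.17. Among the 24 with a background share under 5%, 21 rose and 0 fell by the edgeR test (0 by unadjusted p under 0.05 and 0 by DESeq2), around a median of 0.28, where 75.3% of all such genes rose and 0.675% fell. With background subtracted and scaling on genes under a 5% share, 0 of 52 rose by edgeR (3 by unadjusted p under 0.05), against 0.952% of all genes, and 5 fell, against 12.8%. The 5 were Il36rn (-1.11), the kinase gene Ikbkb (-0.19), the sensor genes Nlrp6 (-1.15) and Nlrp12 (-1.62) and the necroptosis kinase gene Ripk3 (-0.45), of which Ikbkb and Ripk3 are named after their values were seen.

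Among 21 genes of signalling from the receptor, 11 rose and 0 fell by edgeR (0 fell by unadjusted p under 0.05 and by DESeq2), where 22.9% of all genes rose and 31.3% fell. The list had a median background share of 3.98%. Of its 11 genes with a share under 5%, 9 rose, where 75.3% of all such genes rose. Genes of the list that rose included Irak1, the kinase recruited by MYD88, at 74.1 ± 4.65 CPM in the libraries labelled knockdown and 61.5 ± 3.02 CPM in the controls (SD, n = 5 each, log2 fold change 0.27, SE 0.07, adjusted p = 9.6e-04). The ubiquitin ligase gene Peli1 (0.31, SE 0.07), the adaptor gene Tab2 (0.27, SE 0.06) and the NF-kB subunit gene Rela (0.31, SE 0.06) also rose. So did the NF-kB inhibitor gene Nfkbia (0.33, SE 0.09) and Nfkbiz (0.37, SE 0.09). On genes under a 5% share as the scale these 6 were at 0.02 to 0.12, none called.

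Among 12 tested inflammasome sensor genes 5 rose and 4 fell, where 22.9% of all genes rose and 31.3% fell. By unadjusted p under 0.05, and also by DESeq2, 7 rose and 4 fell, where DESeq2 had 25.9% of all genes higher and 26.2% lower. The list had a median background share of 8.67%. Ifi204 (0.37, SE 0.06) and Aim2 (0.29, SE 0.08), members of the DNA-sensing family, and Naip2 (0.28, SE 0.08), which senses bacterial secretion proteins, rose. The sensor genes Nlrp12 (-1.17, SE 0.25), Nlrp6 (-0.94, SE 0.25) and Mefv (-1.54, SE 0.41) fell, with background shares of 37.4 to 59.3%. Ifi204, at 227 ± 17.5 CPM in the libraries labelled knockdown and 175 ± 16.2 CPM in the controls, was the 1 gene of the 59 still called higher with scaling on genes under a 5% share (0.13, SE 0.05, adjusted p = 0.0288), where 1.62% of all genes rose. Members of the Naip family resemble each other in sequence, so reads may have been split among them.

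Among 16 tested caspase, gasdermin and regulator genes 10 rose and 0 fell by edgeR (0 fell by unadjusted p under 0.05 and by DESeq2), where 22.9% of all genes and 75.3% of those with a share under 5% rose. The list had a median background share of 3.77%, and of its 10 genes with a share under 5%, 9 rose. Casp4, the mouse caspase-11 gene that drives the noncanonical inflammasome, averaged 42.8 ± 3.64 CPM in the libraries labelled knockdown and 31.9 ± 3.83 CPM in the controls (SD, n = 5 each, log2 fold change 0.42, SE 0.09, adjusted p = 6.3e-05). It was at 0.18 with scaling on genes under a 5% share (adjusted p = 0.0595) and at 0.21 with background subtracted (adjusted p = 0.0795). Nek7, the kinase that binds NLRP3, was at 0.32 (SE 0.06), and the membrane rupture gene Ninj1 at 0.32 (SE 0.07). Casp8 (0.29, SE 0.07), Ripk1 (0.31, SE 0.06) and Txnip (0.23, SE 0.06) rose as well. With scaling on genes under a 5% share, Nek7 was at 0.077, Ninj1 at 0.073, Casp8 at 0.044, Ripk1 at 0.070 and Txnip at -0.016, none called.

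Among 10 tested further ligands, receptors and decoys 0 rose by the edgeR test (0 by unadjusted p under 0.05 and by DESeq2) and 5 fell. Their median log2 fold change was -0.76 and their median background share 41.6%. Of all genes 22.9% rose and 31.3% fell, and of those with a share of 20 to 40%, 0.257% rose and 49.2% fell. Among the 10, only Il1rl2 (21.1%) and Sigirr (36.2%) had a share in that range. The interleukin-18 receptor genes Il18r1 (-1.48, SE 0.35) and Il18rap (-0.78, SE 0.21), the inhibitory receptor gene Sigirr (-0.94, SE 0.30), Il36rn (-0.93, SE 0.25) and Il1rapl1 (-1.32, SE 0.39) fell. All 5 were low, with control means of 3.33 to 8.61 CPM. Background density predicted more reads for Il1rapl1 than were counted (172%). The interleukin-33 gene Il33 was at -0.74 (SE 0.37, adjusted p = 0.0839).

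**Figure D5:**
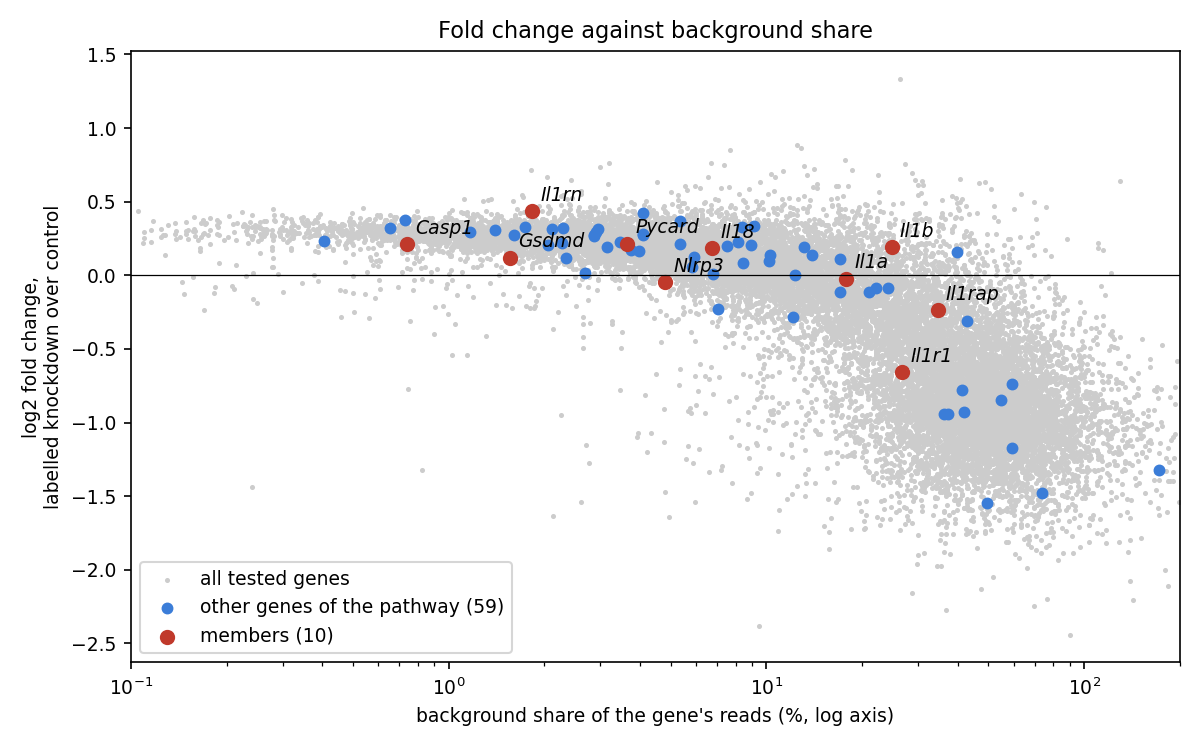
Log2 fold change, libraries labelled knockdown over controls (y axis), against background share (x axis, percent, log scale, 0.1 to 200) for all tested genes in grey, 59 other pathway genes in blue and the 10 members in red. Il1rn at 0.43 lies at the upper edge of the genes with a share under 5%, whose median was 0.24, and Il1r1 at -0.66 lies near the -0.58 median of genes with a share of 20 to 40%.

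Patterns over the 10 libraries were compared with those of 9089 tested genes that averaged at least 10 CPM, by the root mean square difference of log2 CPM centred on each gene's mean. The closest to Il1rn were Cggbp1 (0.0361), Hdac2 (0.0385) and Morc3 (0.0495), whose log2 fold changes were 0.45, 0.38 and 0.36. The closest to Il1r1 were Zfp618 (0.0981), Tnxb (0.118) and Celsr2 (0.123), with background shares of 24.5 to 48.1%. Gsdmd was closest to Anxa7 (0.0333), Pycard to Mpdu1 (0.0618), Nlrp3 to Stk25 (0.0528), Il1rap to Ccnf (0.0774), Il18 to Elof1 (0.127) and Il1a to Prox1 (0.205). Il1b had no close match: the nearest was the sensor gene Nlrp1a, at 0.422. No member was among the 3 nearest genes of another, but Il1a, Il1b, Il18 and Il1r1 averaged under 10 CPM and so could not be.

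Markers of other cells that can hold these RNAs were set beside the members. Border macrophage and monocyte markers summed to 702 to 814 CPM in the libraries labelled knockdown and 568 to 683 CPM in the controls, most of it from the mannose receptor gene Mrc1 (739 CPM on average in the libraries labelled knockdown and 596 CPM in the controls), which rose, as did Pf4 (0.37), while Cd163 (-0.85) and Ccr2 (-0.70) fell. Lyve1, Ly6c2 and Cd209a, not tested, each averaged at most 2.04 CPM in either group. The background share was 0.39% for Mrc1, 1.86% for Pf4, 40.6% for Cd163 and 52.6% for Ccr2. Of all genes with a share under 5%, 75.3% rose. The 9 neutrophil markers summed to 7.09 to 12.9 CPM in the libraries labelled knockdown and 13.6 to 22.9 CPM in the controls. Background density predicted 36.1% of the reads of the neutrophil list. The part of these other cells in the levels of Il1rn and Il1b was not tested.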

How the data were processed

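Per the labels' protocols, total RNA was made into libraries with a random-primed, strand-marking kit for low input. The deposited files hold raw read counts per gene, 1 file per library. Per the submitters' processing notes, reads were demultiplexed with bcl2fastq and the build was GRCm38 (mm10). The aligner, the counter, its strand setting and its annotation are unstated in the sources used here. Of 55471 genes, 55230 matched GENCODE M21, which gave names and exon lengths (all annotated exons merged). The 92 ERCC sequences held at most 2 reads a library and were left out. Members, lists and the background measure were chosen with earlier results of these data known.

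Genes were filtered with filterByExpr, scaled with TMM and tested with edgeR 4.0.16 (quasi-likelihood, robust, group only) in R 4.3.3, with Benjamini-Hochberg adjustment over 19263 genes. SE and intervals come from the F statistic. DESeq2 1.42.0, other scalings and filters, lane, replicate block and left-out libraries were alternatives. Expected background reads were the olfactory density times exon length. Named were the members, the target and per list the 6 genes with the smallest p. The test was checked on simulated counts. The gene nearest to Casp1 in pattern is not reported here. Figures used Python 3.11.15 and matplotlib 3.10.9.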

Additional observations from a re-analysis of the deposited data

Results flagged for a closer look

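In 6 cases a library stood far from the other 4 of its group, measured as its gap to the nearest value over the group's range, for the 35 genes named above by rule (70 groups of libraries tested; chance alone flags about 1 in 20 of such groups). Control replicate 5 had 2.32 CPM of Il1a, against 4.97 to 5.82 in the others, and 92.0 CPM of Casp1, against 70.7 to 75.6. Control replicate 4 had 4.61 CPM of Il33, against 1.66 to 2.19. Control replicate 3 had 48.0 CPM of Naip2, against 42.2 to 43.9. Knockdown-labelled replicate 4 had 3.01 CPM of Il1rapl1 and knockdown-labelled replicate 1 had 3.78 CPM of Mefv, each against 0.517 to 1.19 in the others. Without control replicate 5 the log2 fold change of Casp1 was 0.31 and that of Il1a -0.17.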

How the results depend on the processing

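Il1rn and Il1r1 kept direction and call in 20 of 22 alternatives each, the exceptions being lane 8 alone and background density as a covariate. The members called higher (3) and lower (1) came to 1 and 3 with upper-quartile scaling, library totals or scaling on genes under a 5% background share, to 1 and 2 with the stricter filter or with background subtracted, and to 0 and 0 in lane 8 or with the covariate. The other pathway genes called higher (26) and lower (9) came to 10 and 13 under upper-quartile scaling, 4 and 15 on library totals, 14 and 5 after the stricter filter, 1 and 18 on the scale of genes under a 5% share, 0 and 5 after subtraction, and 0 and 0 in lane 8 (14 and 5 by unadjusted p under 0.05) or with the covariate (5 and 1). Leaving out 1 library gave 2 to 4 members higher, 1 lower, 25 to 30 pathway genes higher and 9 to 11 lower. Shares over all genes were not computed for the fits with a library left out, so these counts cannot be set against the transcriptome. The median log2 fold change of all genes was -0.10 in the main fit, -0.03 with DESeq2, -0.24 with upper quartiles, -0.30 with totals and -0.51 with no filter. Of all genes (4418 higher, 6033 lower), 1685 and 7195 were called on upper quartiles, 759 and 7888 on totals, 2057 and 2239 after the stricter filter, 67 and 153 in lane 8, 312 and 8589 on genes under a 5% share, 140 and 1888 after subtraction and 2 and 28 with the covariate. The cause of these differences was not tested.

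Directions turned as follows, as log2 fold changes, with no call in any of these fits. Il1a (-0.02) was at 0.049 with DESeq2, 0.11 without a filter, 0.27 in lane 8, 0.17 with the covariate and -0.17 to 0.11 when 1 library was left out. Il1b (0.19) was at -0.029 on totals and -0.073 on genes under a 5% share, and it did not pass the stricter filter. Il18 (0.18) was at -0.023 on totals, -0.18 in lane 8, -0.064 on genes under a 5% share, -0.0024 after subtraction and -0.28 with the covariate. Casp1 (0.21) was at -0.035, -0.055 and -0.11 and Pycard (0.21) at -0.032, -0.015 and -0.21 in the last 3 of these fits. Gsdmd (0.12) was at -0.027 on upper quartiles, -0.086 on totals, -0.13 on genes under a 5% share, -0.14 after subtraction and -0.073 with the covariate. Nlrp3 (-0.05) was at 0.022 with DESeq2, 0.083 without a filter and -0.060 to 0.014 when 1 library was left out. The targeted RNA (-0.17) was at 0.32 after subtraction. The cause was not tested.

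Replicate numbers gave no sign of pairing: deviations of same-numbered libraries correlated at -0.10, -0.21, 0.01, 0.15 and 0.16, and 1 of 5 libraries correlated best with its own number. With the replicate block 3 members rose and 1 fell, as without it, and 4405 and 5949 of all genes were called. Il1a, Il1b and Il18, with the fewest reads of the members (176 to 349 over all libraries), also had the widest SEs, 0.22 to 0.33, and the part of depth in this was not tested.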
